A study of Mus musculus with 4 samples.

Results

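The urea cycle and the enzymes that feed it were followed in mouse liver through 9 genes, out of 21025 genes with a RefSeq identifier in the deposited tables. They are Cps1, Otc, Ass1, Asl, Arg1 and Nags, which make up the cycle and its activator, and Glul, Gls2 and Glud1, which bind or release ammonia through glutamine and glutamate. Members were chosen by name, and each was represented by its RefSeq transcript with the highest mean level. All 9 had reads in every library and belonged to the 8845 genes that averaged 100 reads or more, the genes that set the background below. Livers came from C57/BL6 mice of the Clock-delta-19 genotype that also carried 2 transgenes, tetO::Clock-HA and Scg2:tTA. Clock-delta-19 is a dominant-negative allele of the circadian activator Clock. The tTA driver stands under the Scg2 promoter, and tTA switches on the tetO::Clock-HA transgene unless doxycycline is present. Doxycycline (30 ug/ml) was in the drinking water of every animal, starting 3 days ahead of constant darkness and kept up to collection, after a light schedule of 12 h on and 12 h off. The 4 libraries, CT22, CT28, CT34 and CT40, lie 6 h apart, and each was made from RNA pooled equally from 3 animals. All groups therefore share genotype and treatment, and no wild-type or untreated liver was analysed here. The labels give no age. Levels are given as scaled RPKM, reads normalised to transcript length and library size and then scaled between libraries by the TMM method, which evens out the bulk of genes.

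With 1 library per time there is no spread between replicates, so no p-value is given. Ratios carry exact conditional binomial 95% intervals that cover counting error only. They compare libraries, not conditions. The libraries held from 16755994 (CT22) to 19277186 (CT40) gene reads. In Clock, 151 junction reads over the 4 libraries skipped exon 19, the exon lost in this allele, and 1 read joined it on each side. The CT22 library stood apart: its median log2 ratio of 5' over 3' read density over 4577 long genes was 0.16, against 0.40, 0.62 and 0.69 in the libraries that followed. For every 100 gene reads, CT22 held 23.7 intron reads and the other libraries 16.5 to 19.0. GC content and length of the transcripts accounted, by a fitted cubic trend, for 32.9% of the spread of CT22 values around each gene's mean, and for 1.03 to 16.7% in the other libraries. Hepatocyte markers were abundant throughout, with a summed level over 12 genes between 75523 and 89380 scaled RPKM. In bulk liver, fewer cells of a type and less RNA per cell cannot be told apart.

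The urea cycle turns toxic ammonia into urea and runs mainly in periportal hepatocytes. N-acetylglutamate, made by the Nags enzyme, switches on carbamoyl phosphate synthetase, the product of Cps1, which captures ammonia in mitochondria. Ornithine transcarbamylase (Otc) passes the carbamoyl group to ornithine, argininosuccinate synthase (Ass1) and lyase (Asl) add the second nitrogen from aspartate, and arginase (Arg1) releases urea. Glutaminase 2 (Gls2) and glutamate dehydrogenase (Glud1) deliver ammonia to the cycle, and glutamine synthetase (Glul) in the pericentral hepatocytes traps what escapes it.

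The enzymes of the cycle did not share a profile over the 4 libraries. By transcript reads, Cps1 was lowest at CT22 and highest at CT40, while Arg1, Otc and Ass1 were highest at CT22. By splice junction reads Ass1 was highest at CT28, and with the GC and length trend removed Otc was highest at CT40. A range of at least 2-fold was seen in 2 of the 9 genes, Cps1 and Arg1, beside 12.4% of all genes tested. A range of at least 1.5-fold was seen in 4 of 9, with Otc and Ass1 added, beside 43.3% of all genes. With 9 genes, each count is close to its background share. CT22 was the highest library for 4 of the 9 and the lowest for 3, beside 36.5% and 37.3% of all genes, and CT40 was the highest for 2 and the lowest for 2, beside 26.9% and 27.8%. The median log2 range of the 9 genes was 0.48, against 0.53 over all genes. The 6 genes of the cycle had a median log2 range of 0.86 and the glutamine and glutamate genes one of 0.28.

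**Figure D1:**
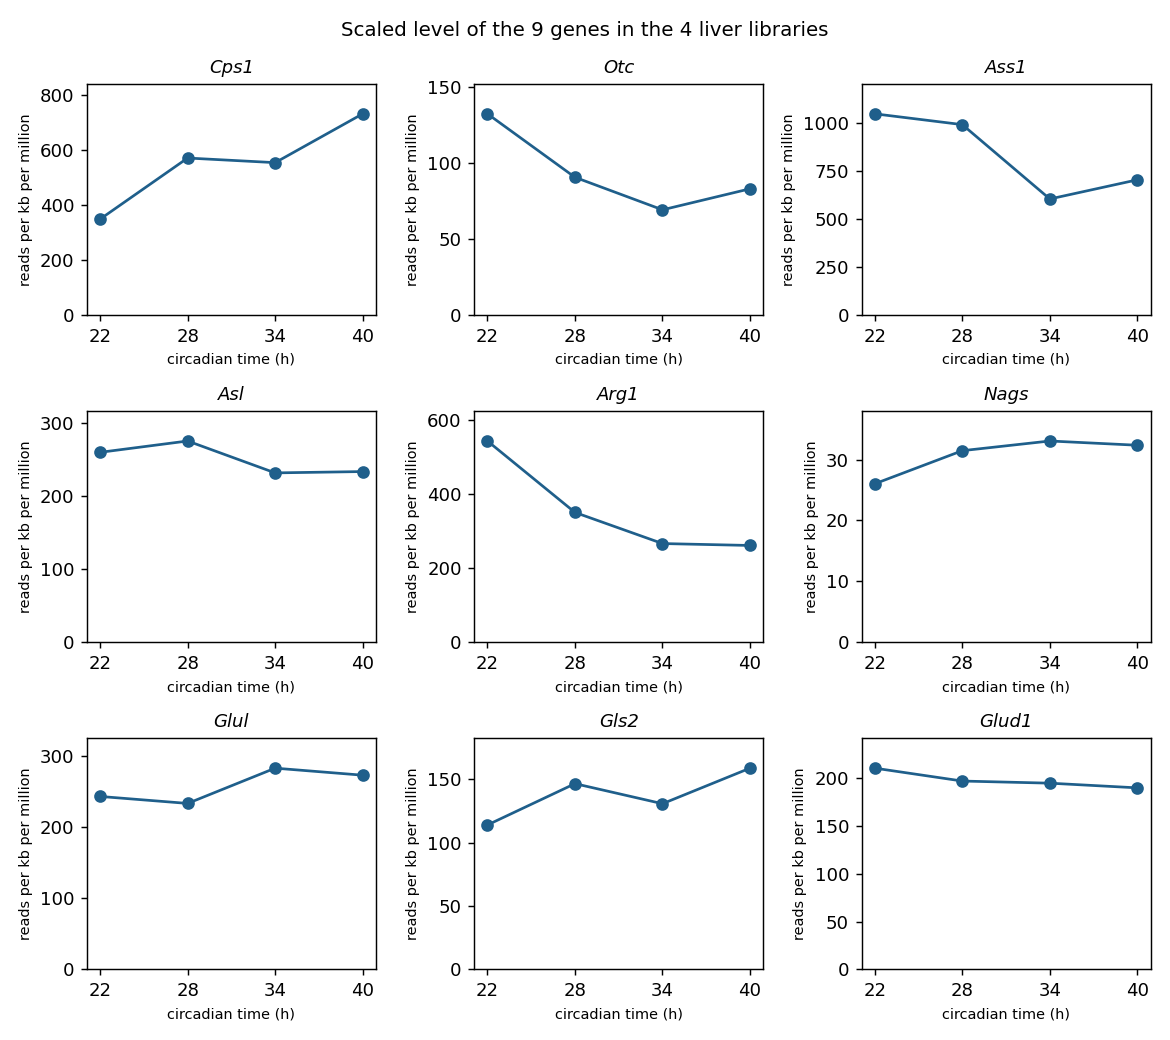
Scaled level (RPKM scale, y axes from 0) of each of the 9 genes against circadian time in hours. Each point is 1 pooled library, without replicates. By these transcript reads Cps1 is lowest at CT22, where Arg1, Otc and Ass1 are highest, and Glud1, Glul, Asl and Nags stay within 1.27-fold.

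Cps1 (NM_001080809, mm9 chromosome 1, 67169640 to 67277022, plus strand, 38 exons) encodes the entry enzyme of the cycle. In time order its level was 349, 572, 555 and 733 scaled RPKM. The lowest library lay well below the other 3, and CT40 stood above all of them. CT40 over CT22 was 2.10-fold (95% counting interval 2.07 to 2.12), a range wider than that of 90.1% of genes tested. CT28 and CT34 differed by 1.03-fold (1.02 to 1.04). With CT22 left out, the range of Cps1 was the 1.32-fold between CT34 and CT40.

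The position of the reads along Cps1 moved with that difference. The exon reads of Cps1 sum to 3.10 times its transcript reads. This was read as a count in every exon that a read touches, an inference from the values. Exon reads therefore serve only for ratios between libraries. CT22 was lower than CT34 in 37 of 38 exons. The ratio ran from 0.327 in the first exon (1674 reads at CT22 and 5374 at CT34) to 1.29 in the last (6177 and 5029). In the 5' part of the transcript (18 exons) CT40 was 3.43-fold above CT22, and in the 3' part (20 exons) 1.75-fold. Over the 4577 long genes the median ratio of CT22 to CT40 was 0.689 in 5' parts and 1.01 in 3' parts. Cps1 stood below those medians in both parts, at CT22 over CT34 ratios of 0.416 and 0.726, where the medians were 0.732 and 0.984.

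Arg1 (NM_007482, chromosome 10, 24635013 to 24647276, minus strand, 8 exons) encodes the enzyme that splits arginine into urea and ornithine. Its level was 543, 351, 267 and 261 in time order. CT22 was the highest library, and the pair CT34 and CT40 did not differ beyond counting error (1.02-fold, interval 0.992 to 1.05). CT22 over CT40 was 2.08-fold (2.03 to 2.13), and without CT22 the range of Arg1 was the 1.34-fold between CT28 and CT40. Across its exons the ratio of CT22 to CT34 ran from 1.03 to 2.38 and was above 1 in 8 of 8. With the GC and length trend removed its range was 1.68-fold.

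Otc (NM_008769, chromosome X, 9829485 to 9898150, plus strand, 10 exons) encodes the enzyme that makes citrulline in mitochondria. It ran at 132, 90.6, 69.2 and 83.1 in time order. CT22 was again the highest library and CT34 the lowest, 1.91-fold apart (1.84 to 1.99). Without CT22 the range of Otc was the 1.31-fold between CT28 and CT34. All 10 exons were higher at CT22 than at CT34, by 1.32 to 2.58-fold. Otc has a GC content of 39.0%, the lowest of the 9 transcripts, and with the GC and length trend removed its range was 1.20-fold with the highest value at CT40. CT34 stayed its lowest library.

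Ass1 (NM_007494, chromosome 2, 31325790 to 31376190, plus strand, 16 exons) encodes the enzyme that joins citrulline to aspartate. By the lower deposited value, read as uniquely mapped reads, its level was 1047, 991, 604 and 704. The CT22 and CT28 libraries lay together above the CT34 and CT40 libraries. CT22 over CT34 was 1.73-fold (1.71 to 1.76), and CT28 over CT34 1.64-fold (1.62 to 1.67). Over the 14 exons with a mean of at least 100 reads, CT22 over CT34 ran from 0.993 to 2.08. It was 1.39 in the 5' part and 1.71 in the 3' part. Removing the GC and length trend gave a range of 1.76-fold.

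By this reading, most Ass1 reads also mapped elsewhere. The upper value, which counts multi-mapped reads, was 2.35 times the lower at CT22 and 3.04, 2.93 and 3.21 times in the libraries that followed. By the upper value the levels were 2474, 3002, 1764 and 2261, so CT28 took the highest place and CT34 kept the lowest. In exons 1 to 13 of Ass1 between 1.59 and 19.9% of reads were unique, against 62.2 to 66.0% in exons 14 to 16. Those last 3 exons held 89.4% of the unique exon reads. By the upper value, CT22 over CT34 lay between 0.837 and 1.002 in exons 1 to 4. In exons 14, 15 and 16 it was 1.75, 1.45 and 1.78, so the CT22 excess was not seen along the whole transcript. The level of Ass1 against the other enzymes is therefore uncertain.

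**Figure D2:**
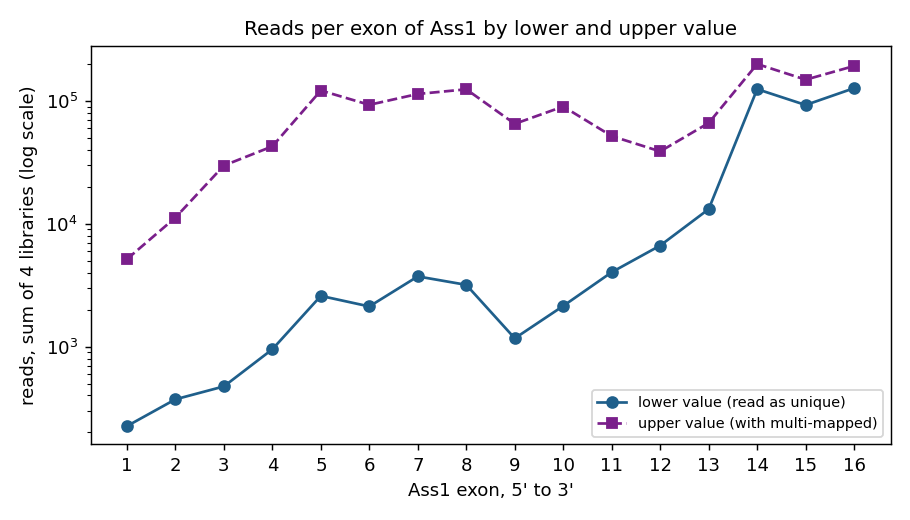
Reads in each of the 16 exons of Ass1 (x axis, 5' to 3'), summed over the 4 libraries, on a log scale. Circles give the lower deposited value (read as unique) and squares the upper value with multi-mapped reads. The lines lie far apart in exons 1 to 13, where at most 19.9% of reads were unique, and close in exons 14 to 16.

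Asl (NM_133768, chromosome 5, 130487373 to 130500201, minus strand, 17 exons) encodes argininosuccinate lyase. Its level was nearly flat, at 260, 275, 232 and 233. CT28 over CT34 was 1.19-fold (1.16 to 1.22), and CT34 and CT40 did not differ beyond counting error (0.992-fold, 0.964 to 1.02). Nags (NM_145829, chromosome 11, 102006901 to 102010385, plus strand, 7 exons), which encodes N-acetylglutamate synthase, was the least abundant of the 9. It stood at 26.0, 31.5, 33.0 and 32.3, with CT22 below the rest: CT34 over CT22 was 1.27-fold (1.17 to 1.38), while CT28, CT34 and CT40 did not differ beyond counting error. A transcript on the opposite strand covers 25.6% of the Nags exons, and the library protocol describes no step that marks strand, so reads of both cannot be told apart there.

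Among the ammonia-handling enzymes, Glul (NM_008131, chromosome 1, 155747075 to 155756844, plus strand, 7 exons) ran at 244, 234, 283 and 273. The CT34 and CT40 libraries lay above CT22 and CT28, with CT34 over CT28 at 1.21-fold (1.19 to 1.24). Gls2 (NM_001033264, chromosome 10, 127631691 to 127647059, plus strand, 18 exons) ran at 114, 146, 131 and 159. It shares 94 exon bases (3.82%) with Spryd4 on the opposite strand. CT40 over CT22 was 1.39-fold for Gls2 (1.35 to 1.44), and 1.23-fold separated its highest and lowest library with the GC and length trend removed. Glud1 (NM_008133, chromosome 14, 35123913 to 35158219, plus strand, 13 exons) was the most even, at 211, 197, 195 and 190, with a range of 1.11-fold (1.08 to 1.13), narrower than that of all but 3.14% of genes. Per unit length, Glul stood at 2.14, 1.60, 2.17 and 1.72 times Gls2 in time order.

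Within Glud1, Glul and Gls2 the ends of the transcript gave different ratios. In Glud1 the ratio of CT22 to CT34 was 0.489 in the first exon (2576 and 5532 reads) and 1.59 in the last (11491 and 7587). In Glul it was 0.599 in the first exon and 1.01 in the last, and in Gls2 0.495 and 1.19. In all 9 genes the first exon had a lower ratio of CT22 to CT34 than the last. In Ass1 that first exon held only 47 reads at CT22 and 47 at CT34. The share of all genes with such an order of exons was not computed. Over the 4577 long genes the median ratio was 0.732 in 5' parts and 0.984 in 3' parts, so the lean was not particular to the 9 genes. The CT22 library as a whole had the lowest 5' over 3' read density, and its part in these ratios was not tested.

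**Figure D3:**
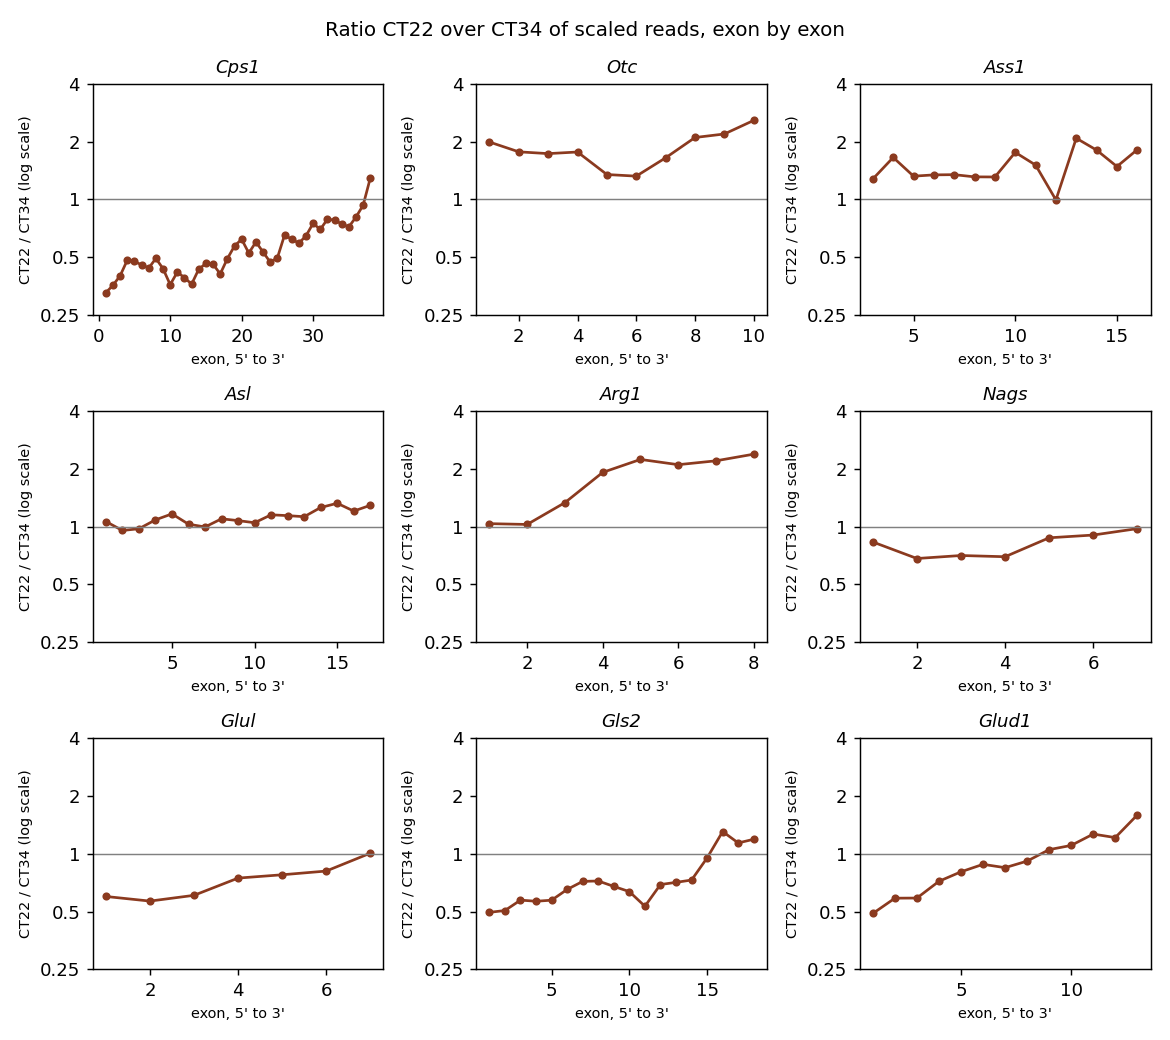
Ratio of scaled reads at CT22 to those at CT34 (log scale) in each exon with a mean of at least 100 reads, numbered from the 5' end. The grey line marks equal values. Cps1 lies below 1 in 37 of 38 exons, Otc and Arg1 lie above 1 in every exon, and Glud1, Gls2 and Glul pass from below 1 to above it towards the 3' end.

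The 2 pairs of libraries 12 h apart were compared gene by gene. At CT22, 3 of the 9 genes were at least 1.5-fold higher than at CT34 (Arg1, Otc and Ass1), beside 13.2% of all genes, and 1 was at least 1.5-fold lower (Cps1), beside 13%. Counting any difference, 5 of 9 were higher at CT22 than at CT34, beside 49.7% of all genes, and 5 of 9 higher at CT28 than at CT40, beside 51%. Between CT28 and CT40 none of the 9 passed 1.5-fold in either direction, beside 5.44% of all genes higher and 5.27% lower at CT28. The widest CT28 over CT40 ratios were 1.41 for Ass1 (1.39 to 1.43), 1.34 for Arg1 (1.31 to 1.38) and 0.780 for Cps1 (0.773 to 0.788). No wild-type series stands beside these values, so the effect of the Clock allele on them was not tested.

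The proportions between steps of the cycle differed between libraries. Per unit length, Cps1 stood at 2.64, 6.31, 8.02 and 8.83 times Otc in time order. That ratio was 3.34-fold higher at CT40 than at CT22, and 1.88-fold higher after removal of the GC and length trend. The last exon of Otc makes up 1182 of its 2265 bases. It held 3268 reads at CT22 and 1526 at CT40, beside 7461 and 5290 transcript reads. A length that includes this exon lowers the level of Otc, so the multiples of Otc are uncertain. Cps1 stood at 0.643 times Arg1 at CT22 and 2.80 times at CT40. This was a 4.36-fold shift, and a 3.27-fold one after removal of the GC and length trend. Ass1 led the 9 genes at CT22, CT28 and CT34 and Cps1 at CT40 by unique reads, while Nags was last in every library. With multi-mapped reads Ass1 led in every library, at 2261 against 734 for Cps1 at CT40. Summed over the 6 genes of the cycle, the level was 2358, 2311, 1760 and 2047 by unique reads. With multi-mapped reads, most of them in Ass1, it was 3791, 4319, 2919 and 3606, with CT28 in place of CT22 as the highest library. The 9 genes together held 0.910 to 1.07% of gene reads.

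Splice junction reads, from other deposited files, counted spliced RNA separately. All introns of the 9 chosen transcripts had junction reads. Scaled by total junction reads, Cps1 had 53018, 84860, 79672 and 105454 in time order, a range of 1.99-fold (1.97 to 2.01), with CT22 again lowest. Arg1 had 18122, 9934, 8175 and 7930, a range of 2.29-fold (2.23 to 2.35), with CT22 highest, and Otc had 8713, 5505, 4342 and 5597, a range of 2.01-fold (1.93 to 2.08). For Ass1 the junction reads were 34045, 36549, 21116 and 24265, with CT28 highest as in the upper value. Transcript and junction reads, both from the same libraries, were highest in different libraries in Ass1, Asl, Nags and Glud1. They were lowest in different libraries in Nags and Glud1. The share of all genes with such a mismatch was not computed.

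**Figure D4:**
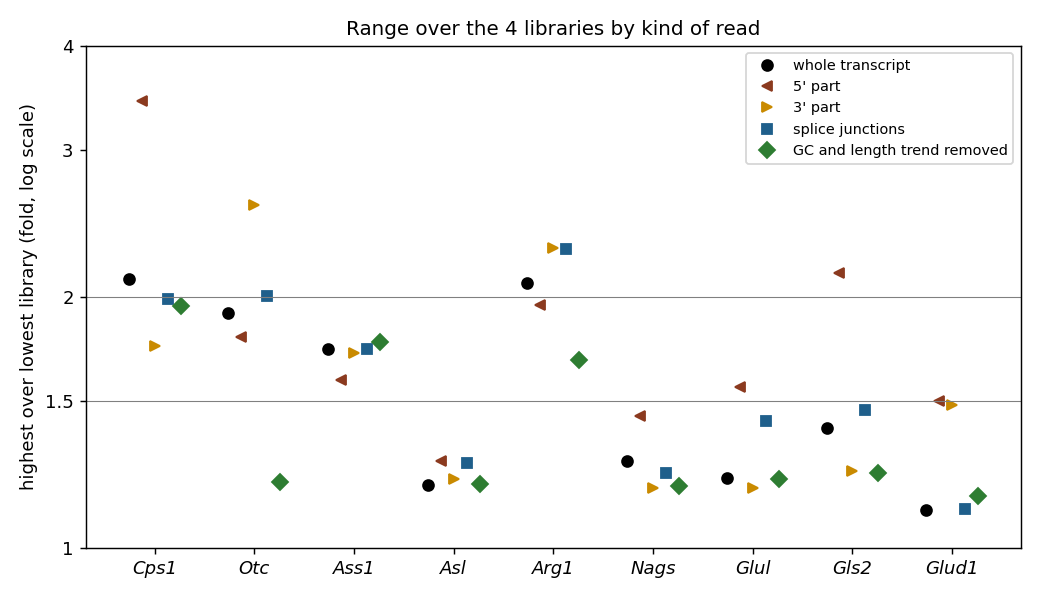
Highest over lowest library (fold, log scale) for each gene by 5 measures: whole transcript, 5' part, 3' part, splice junctions, and whole transcript with the GC and length trend removed. Grey lines mark 1.5 and 2-fold. Cps1 and Arg1 lie above 1.5-fold by every measure shown, as does Ass1, while Otc lies at 1.20-fold with the trend removed and between 1.79 and 2.58-fold otherwise.

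Intron reads, which come largely from unspliced RNA, went against the transcript reads in Cps1 and Arg1. They were summed over the introns of each chosen transcript. No exon of another RefSeq gene lies in those introns. Exons of other transcripts of the same gene, or of transcripts outside RefSeq, were not looked for. In Asl, intron 1 (197 bases) held 1245 of the 3437 intron reads at CT22, and a junction annotated in another transcript lies within it. Introns of Cps1 held 14168, 5725, 3589 and 4957 reads in time order. CT22, the lowest library by transcript, was the highest by intron, and all 37 introns were higher there than at CT34. Scaled CT22 over CT34 was 4.14-fold (4.00 to 4.30), above 98.7% of 5340 genes with enough intron reads, whose median was 1.47-fold. Intron density per base was 1.59, 0.363, 0.241 and 0.234% of the transcript density in time order.

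Arg1 introns showed the reverse. They held 1247, 2772, 1646 and 1915 reads, lowest at CT22 where the transcript was highest, and highest at CT28. CT28 over CT22 was 2.06-fold (1.93 to 2.20), and CT22 over CT34 was 0.795 (0.738 to 0.857), above only 6.84% of genes. In Arg1, 3 of the 7 introns were higher at CT22 than at CT34.

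Glud1 introns were lower at each later time while its transcript stayed even. Reads numbered 3679, 2029, 1428 and 1210, and CT22 over CT40 was 3.44-fold when scaled (3.22 to 3.67). All 12 introns were higher at CT22 than at CT34. Otc introns (1014, 835, 581 and 837 reads) kept the order of the transcript at the top and the bottom, with CT22 over CT34 at 1.83-fold (1.65 to 2.03). Ass1 introns (10182, 13145, 8150 and 7595 reads) were 1.81-fold higher at CT28 than at CT40 (1.76 to 1.86), above 94.3% of genes for that pair. Introns of Nags held only 122 to 158 reads, and their range of 1.21-fold was within counting error (0.955 to 1.53).

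Over the 9 genes, intron reads were higher at CT22 than at CT34 in 8, beside 82.9% of all genes, and higher at CT28 than at CT40 in 7, beside 73.9%. Intron and transcript reads were highest in the same library in 2 of 9, Otc and Glud1, beside 42.8% of all genes. Intron reads had a 2-fold range in 3 of 9, beside 31.4%, and a 1.5-fold range in 5 of 9, beside 66.6%. They were highest at CT22 in 4 of 9, beside 65.9%. The part of that library-wide excess in the values of Cps1 and Glud1 was not tested.

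**Figure D5:**
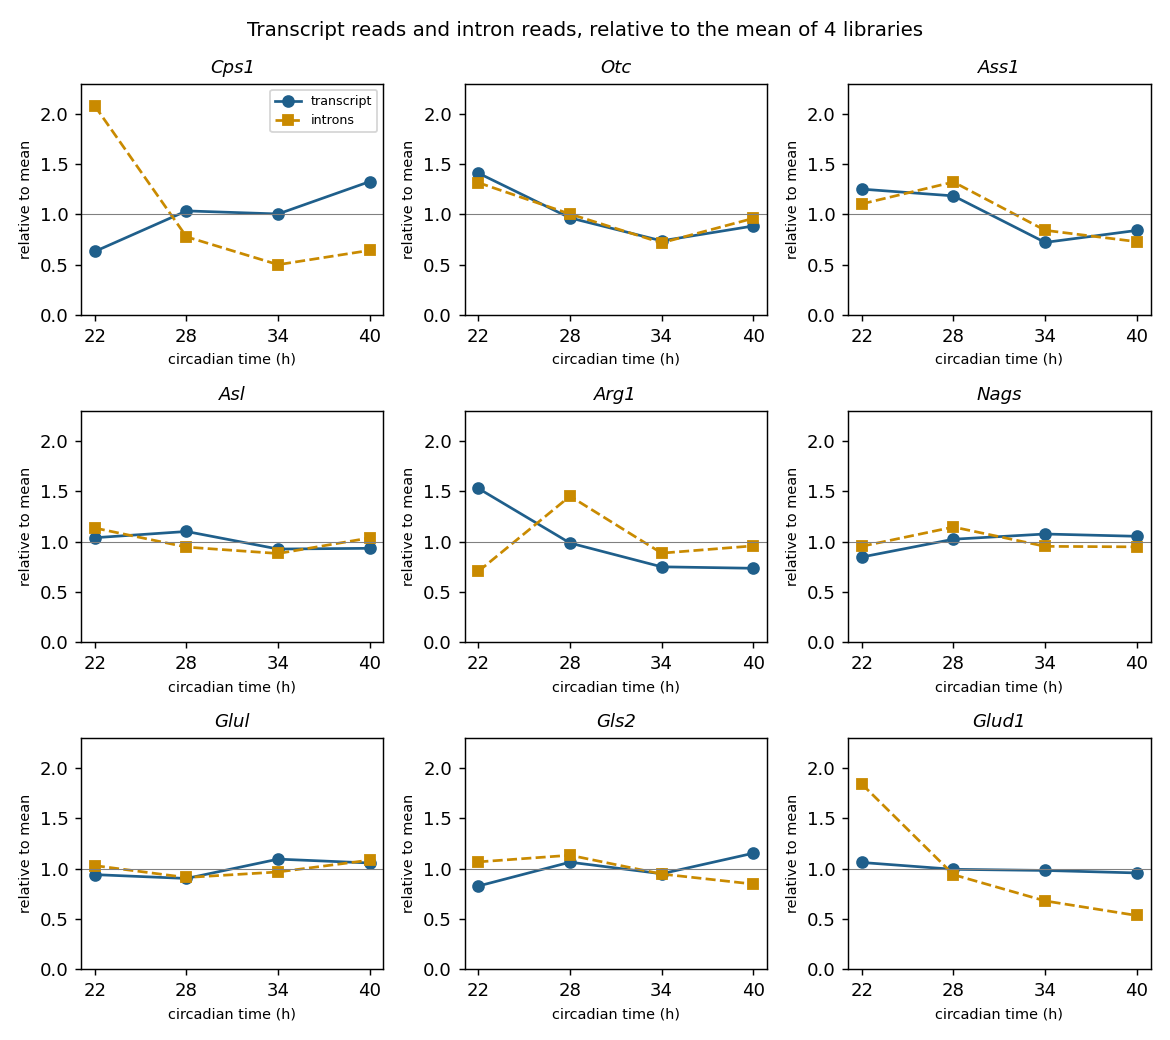
Scaled transcript reads (circles, solid line) and intron reads (squares, dashed line) of each gene, each divided by its mean over the 4 libraries, against circadian time in hours. The 2 lines cross in Cps1, where introns peak at CT22 and the transcript at CT40, and run together in Otc. Glud1 introns go down from CT22 to CT40 while its whole transcript, whose 5' and 3' parts went opposite ways, stays within 1.11-fold.

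The 3 genes with the widest ranges had neighbours in profile across the genome, by the distance between centred log2 levels over the 4 libraries. Nearest to Cps1 were Tap2 (3.12, 5.21, 5.04 and 6.53; distance 0.029), Nrde2 (distance 0.053) and Slc26a1 (distance 0.055), and 94 genes lay within 0.2. Nearest to Arg1 were Ccl27a, Nufip2 and Dnajc15 at 0.034, 0.037 and 0.043, with 113 within 0.2. Nearest to Otc were Tyms, Timm21 and 1110059E24Rik at 0.022, 0.045 and 0.058, with 163 within 0.2. With 4 points per gene such likeness is a description only.

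Promoter sequence was available for 5 of the 9 genes in the RefSeq table (GRCm38.p6, a different build from the mm9 of the deposited files): Otc, Ass1, Nags, Glul and Glud1. The 250 bases before the start are shown for Otc and Ass1, which were both higher at CT22 than at CT34, and for Nags and Glul, which were lower at CT22 than at CT34. They lie at chrX:10252055-10252304, chr2:31470020-31470269, chr11:102145263-102145512 and chr1:153899679-153899928, all on the plus strand. Capitals mark matches, on either strand, to 5 motifs: CACGTG (the E-box bound by Clock and its partner), TTGCNNAA (C/EBP factors), TGACGTCA (the cyclic AMP response element), AGGTCA (the core site of nuclear receptors) and TTATGTAA (the D-box).
Otc: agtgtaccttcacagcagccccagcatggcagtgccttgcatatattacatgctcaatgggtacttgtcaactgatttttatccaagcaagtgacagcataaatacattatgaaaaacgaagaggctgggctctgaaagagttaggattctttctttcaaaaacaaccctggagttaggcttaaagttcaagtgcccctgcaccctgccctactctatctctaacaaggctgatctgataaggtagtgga
Ass1: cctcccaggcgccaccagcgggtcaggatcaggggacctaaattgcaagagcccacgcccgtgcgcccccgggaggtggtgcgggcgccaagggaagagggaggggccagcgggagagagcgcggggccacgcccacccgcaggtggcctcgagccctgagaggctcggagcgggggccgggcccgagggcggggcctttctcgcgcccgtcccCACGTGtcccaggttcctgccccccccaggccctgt
Nags: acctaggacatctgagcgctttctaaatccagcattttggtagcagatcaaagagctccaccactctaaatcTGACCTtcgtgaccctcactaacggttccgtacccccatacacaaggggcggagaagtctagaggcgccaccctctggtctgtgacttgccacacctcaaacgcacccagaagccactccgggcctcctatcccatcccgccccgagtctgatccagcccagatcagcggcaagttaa
Glul: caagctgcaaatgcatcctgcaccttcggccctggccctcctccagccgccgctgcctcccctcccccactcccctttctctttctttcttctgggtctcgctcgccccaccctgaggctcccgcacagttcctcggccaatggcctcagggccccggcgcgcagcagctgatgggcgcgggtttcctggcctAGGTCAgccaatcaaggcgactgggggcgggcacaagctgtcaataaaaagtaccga

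A CACGTG stood 36 bases before the start of Ass1, and 6.04% of the 32536 promoter windows searched hold that motif. An AGGTCA stood 57 bases before the start of Glul and, on the other strand, 178 bases before that of Nags, beside 14.04% of all windows. Otc and Glud1 held none of these letters in the window, and neither TTGCNNAA, TGACGTCA nor TTATGTAA was found in the 5 windows. The windows of Otc and Ass1 differ in GC content, at 43.6 and 75.6%.

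Carriers and aspartate-supplying enzymes of the cycle were more even than the cycle enzymes. Of 13 listed genes, 11 had enough reads, and none had a 1.5-fold range, beside 43.3% of all genes. The widest was Mdh2, mitochondrial malate dehydrogenase, at 87.1, 119, 126 and 115 (1.45-fold, 1.38 to 1.52). Slc25a22, a mitochondrial glutamate carrier, ran at 75.5, 92.7, 105 and 73.4, and Car5a, the carbonic anhydrase that supplies bicarbonate to the Cps1 enzyme, at 54.2, 48.1, 43.3 and 47.6. Slc25a12, an aspartate and glutamate carrier, stayed between 3.29 and 4.34. Their median log2 range was 0.32.

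Transporters of glutamine and other amino acids had a 1.5-fold range in 6 of 12 measured, beside 43.3% of all genes, and a 2-fold range in 1, beside 12.4%. That gene was Slc38a3, the main glutamine transporter of hepatocytes. It had levels of 362, 530, 587 and 975, lowest at CT22 and highest at CT40 as in Cps1, with a range of 2.70-fold (2.66 to 2.74). With the GC and length trend removed it was 2.29-fold. Slc1a2, a glutamate transporter of pericentral hepatocytes, ran at 25.9, 41.9, 43.0 and 33.3. Slc7a8 and Slc43a1, both amino acid transporters, stayed under 5 scaled RPKM.

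Enzymes of amino acid breakdown, the source of most ammonia in the cycle, had a 1.5-fold range in 15 of 41 measured, beside 43.3% of all genes, and a 2-fold range in 2, beside 12.4%. Their median log2 range was 0.47, against 0.53 over all genes. Cbs, which removes homocysteine, stood at 127, 209, 277 and 255 (2.19-fold, 2.13 to 2.25). Hal, histidine ammonia lyase, which frees ammonia from histidine in periportal cells, stood at 88.9, 115, 128 and 186 (2.09-fold, 2.03 to 2.15), with its lowest and highest libraries those of Cps1. Gldc, a subunit of the glycine cleavage system, ran at 29.7, 54.5, 57.1 and 53.9. Prodh, proline dehydrogenase, was higher at CT28 and CT40 (74.0 and 70.1) than at CT22 and CT34 (50.1 and 44.5).

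Zonated hepatocyte genes went both ways within each list. Of 15 periportal genes, which include Cps1, Ass1, Arg1, Gls2 and Hal, 12 had a 1.5-fold range and 6 a 2-fold range, beside 43.3% and 12.4% of all genes. Of these 15, 4 were higher and 11 lower at CT22 than at CT34, beside 49.7% higher among all genes. Pck1, the first enzyme of gluconeogenesis, stood at 453, 324, 688 and 373, and Cdh1, E-cadherin, at 4.12, 5.36, 6.39 and 13.3. Sox9, also a bile duct gene, stood at 1.60, 3.09, 3.69 and 3.11. Of 16 pericentral genes, which include Glul, 8 had a 1.5-fold range and 2 a 2-fold range, beside the same 43.3% and 12.4%, with 7 higher and 9 lower at CT22 than at CT34. Cyp7a1, of bile acid synthesis, had the widest range among them at 7.47-fold (6.98 to 8.001), with 65.0 at CT22 and 8.70 at CT34. Lect2, a secreted liver protein, stood at 110, 75.0, 54.5 and 51.3, Tbx3, a transcription factor, at 6.13, 11.2, 10.8 and 9.58, and Cyp27a1, a sterol hydroxylase, at 149, 202, 189 and 258.

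Among 15 regulators known to act on urea cycle genes or on liver identity, 4 had a 1.5-fold range and 3 a 2-fold range, beside 43.3% and 12.4% of all genes. Cebpb, a C/EBP factor of the response to hormones and injury, was 3.53 at CT22 and 17.1, 29.3 and 29.8 later, a range of 8.44-fold (7.05 to 10.2). Foxa2 stood at 25.2, 29.3, 14.6 and 18.5 and Foxa1 at 9.96, 8.65, 6.28 and 6.15. Both are forkhead factors of liver. After removal of the GC and length trend, Cebpb had an 8.49-fold range.

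Markers of other liver cells moved between libraries as well. The 9 measured endothelial markers were all lower at CT22 than at CT34, where 49.7% of all genes were higher at CT22, with a summed level over 10 genes of 49.2, 50.1, 75.0 and 50.4. Kdr, a receptor of endothelial cells, stood at 1.95 and 5.23 in that pair, Oit3 at 1.95 and 5.56, Cdh5 at 2.84 and 6.70 and Stab1 at 2.75 and 5.75. Kupffer cell markers summed to 102 to 125, stellate cell markers to 57.5 to 86.9, bile duct markers to 15.6 to 19.97 and red cell markers to 31.2 to 85.8. No neutrophil or lymphocyte marker reached a mean of 100 reads, and those lists summed to at most 1.39 and 4.07. The part of these cells in the values of the 9 genes was not tested. The summed hepatocyte level was lowest at CT40, but its 12 markers were split. Of these, 7 were higher and 5 lower at CT28 than at CT40, beside 51% higher among all genes.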

How the data were processed

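Liver polyA RNA of 4 pooled libraries was sequenced, and the authors deposited a minimum and a maximum value per transcript, exon and intron (build mm9, per the submitters' processing notes) with no stated unit. They behave as RPKM: 99.89 to 99.92% of minimum transcript values came out as whole reads within 0.05 read beyond rounding. The minimum was read as unique and the maximum as including multi-mapped reads, an inference from the values. The deposited junction files hold counts of spanning reads, found by RUM per the file headers. For the aligner's version and the counting rule, the sources used here state nothing.

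Whole reads were recovered, 1 RefSeq transcript kept per gene (25898 of 26556 RefSeq transcripts had a symbol) and libraries scaled by TMM (edgeR 4.0.16) over genes averaging 100 reads or more. Counts under 3 were set to 3 for folds. Junction counts were scaled by their total. Python 3.11.15 and R 4.3.3 were used. The 2-fold rule was checked on simulated counts that held counting error only, without spread between animals or trends along transcripts. Members and gene lists were chosen with earlier results of these data known. All 9 members are named, with up to 4 genes of the widest range from every other list and the 3 nearest profiles of 3 members. 1 gene that this rule names is not reported here. Alternatives covered scaling, filters, multi-mapped reads, transcript choice and part, junctions, a GC and length trend, and leaving out CT22 or CT40. DESeq2 1.42.0 gave other size factors.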

Additional observations from a re-analysis of the deposited data

How the results depend on the processing

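No replicate exists, so no test or leave-one-out of replicates could be run, and intervals cover counting error only. No paired analysis was possible because each time has 1 pooled library. The count of genes with a 2-fold range, 2 of 9, was 1 on the deposited values without scaling, 0 with the GC and length trend removed, 0 without CT22 and 1 without CT40. Leaving out a library can only narrow the range of a gene. Shares of all genes under the alternatives are not given, so the counts here have no background beside them. The count with a 1.5-fold range, 4 of 9, was 1 without CT22, 3 with the trend removed, 5 on unscaled values and 6 in the 5' part. The count at least 1.5-fold lower at CT22 than at CT34, 1 of 9, was 3 in the 5' part and 0 in the 3' part. Between CT28 and CT40, where none passed, 1 was lower in the 5' part and 1 higher by junctions. The count at least 1.5-fold higher at CT22 than at CT34, 3 of 9, was 2 with multi-mapped reads and in the 5' part, where Ass1 dropped out, 2 with the trend removed, where Otc did, and 2 on unscaled values. Directions turned, given as log2 ratios, in Otc, Asl, Glud1, Glul and Gls2, and in Nags, whose CT28 over CT40 ratio was within counting error (-0.040, and 0.14 in the 3' part). On unscaled deposited values these were Otc CT28 over CT40 (-0.0019), Asl CT22 over CT34 (-0.072) and Glud1 in both pairs (-0.13 and -0.074). In the 5' part Glud1 turned (-0.54 and -0.22), and in the 3' part Glul (0.0088) and Gls2 (0.12), both CT22 over CT34. By junctions Otc CT28 over CT40 (-0.024) and Glud1 (-0.034 and -0.16) turned, and with the trend removed Otc CT28 over CT40 (-0.066) and Gls2 CT22 over CT34 (0.043). The cause was not tested. Cps1, Otc, Ass1, Arg1 and Nags kept their direction for CT22 against CT34 in all 11 alternatives. The log2 ratio of Otc for that pair was 0.93, and 0.21 with the trend removed. With DESeq2 size factors or the longest RefSeq transcript, all 27 single-gene values moved by less than their counting interval.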

Other observations

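Arginine also feeds creatine and polyamine synthesis. Of 14 listed genes of these routes, 9 had enough reads, 5 had a 1.5-fold range and 2 a 2-fold range, beside 43.3% and 12.4% of all genes. Gamt, which completes creatine synthesis, stood at 175, 144, 84.1 and 124 scaled RPKM at CT22, CT28, CT34 and CT40, a range of 2.08-fold (1.97 to 2.19), with its highest and lowest libraries those of Otc and Ass1. Gatm, the enzyme before it, was low, at 1.41, 1.26, 2.40 and 1.72. Srm, spermidine synthase, was lowest at CT40 (16.9) and lay between 24.2 and 27.99 otherwise. Amd1, of polyamine synthesis, had a 2.36-fold range, but its value with multi-mapped reads was 2.13 times the unique one.

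Among unlisted splice junctions of the 9 genes, which made up at most 1.20% of a gene's junction reads, 1 in Asl carried 98, 142, 88 and 86 reads in time order. It spans mm9 chromosome 5, 130499967 to 130500077, and is annotated in another transcript.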
